A study of Mus musculus with 6 samples.

Results

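The translation initiation factor genes were 53 of the 25631 genes listed in the deposited expression table. They were chosen by symbol alone, as the protein coding genes whose name starts with Eif and a digit, leaving out Eif4e1b and Eif4enif1, a rule that uses no measured value. Oocytes of 14-month-old ICR mice were compared between mice that had drunk 4 mM aminophylline, a non-selective phosphodiesterase inhibitor, for 1 week followed by water alone for 3 weeks (aminophylline group, n = 3 libraries) and mice of the same age that received no aminophylline (control group, n = 3 libraries, labelled as aged and untreated). The mice had been given equine chorionic gonadotropin, which drives the growth of antral follicles, and the oocytes were punctured out of large antral follicles. How many oocytes and mice went into a library is not given in the sources used here. The p-values set the difference between the groups against the spread between these libraries, part of which may be technical.

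Translation of most eukaryotic mRNAs starts when the cap at the 5′ end is bound by eIF4E and its partners eIF4G and eIF4A, and the small ribosomal subunit, carrying eIF1, eIF1A, eIF3 and the eIF2 complex with the initiator tRNA, is recruited and scans to the start codon. The large subunit then joins with the help of eIF5 and eIF5B, and eIF2B reloads eIF2 with GTP. Initiation is slowed when kinases phosphorylate the alpha subunit of eIF2, and when 4E-binding proteins hold eIF4E away from eIF4G, a step that mTOR controls. Fully grown oocytes transcribe little and live on stored mRNAs that are translated at set times, so the level of an mRNA in these cells need not follow the amount of its protein.

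Each library was sequenced to between 14112341 reads in control 2 and 33641283 reads in control 1, and the other 4 libraries held between 24773273 and 31802417 reads, as recovered from the deposited values. The 10 oocyte markers examined, such as Gdf9, Zp3 and Dppa3, together reached 19600 to 26900 FPKM (fragment counts scaled to the length of the gene and the size of the library) in every library. Among them Gdf9, Zp3 and Nlrp5 were lowest in control 1, and the others were lowest in another library. Gdf9 had 1520 FPKM in control 1 and 2850 to 3660 elsewhere. The summed FPKM was 16.4 to 24.4 for 10 granulosa cell markers, 0.5 to 1.6 for 6 stromal markers and 0.0486 to 0.585 for the 4 erythrocyte markers listed. Control 1 stood apart in the 9 macrophage markers listed, which summed to 163 FPKM there, to 103 and 82.7 in control 2 and 3, and to between 82.8 and 102 in the aminophylline libraries. Lyz2 was at 66.4 FPKM in control 1 and at most at 0.573 elsewhere, and Adgre1 and C1qc were above 0 in control 1 alone, whereas C1qb lay between 72.3 and 99.8 in all 6 libraries. Fits were also run without each library in turn. Those without control 1 are given as counts for the members and for the regulators of initiation. They are given by gene for the members with an unadjusted p under 0.05 or no overlap between the groups.

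Summed over the 53 members, the FPKM was between 3862 and 4164, which was 0.657% to 0.769% of the total FPKM of a library. The control libraries held 3954, 3862 and 3924, and the aminophylline libraries 4112, 3984 and 4164. All of the aminophylline sums lay above the control sums as FPKM, but the shares of the library overlapped (0.727%, 0.657% and 0.769% in control and 0.705%, 0.704% and 0.769% with aminophylline), since the libraries differ in their total FPKM.

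The mean FPKM over the 6 libraries spanned several orders of magnitude. It was over 100 for 14 members, 10 to 100 for 20, 1 to 10 for 14 and under 1 for 5. The 48 members that passed the expression filter (FPKM of at least 1 in at least 3 libraries) had a median of 27.5 FPKM, against 6.62 for the 10340 genes that passed it. The 5 highest members were Eif1b with a mean of 435 FPKM, Eif1 with 346, Eif3k with 336, Eif2s2 with 314 and Eif2b1 with 292. Their libraries ranged over 381 to 492, 305 to 375, 236 to 405, 292 to 333 and 248 to 364 FPKM, so that Eif1b lay above Eif1 in every library, and the ranges of the other neighbours in this order overlapped.

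**Figure D1:**
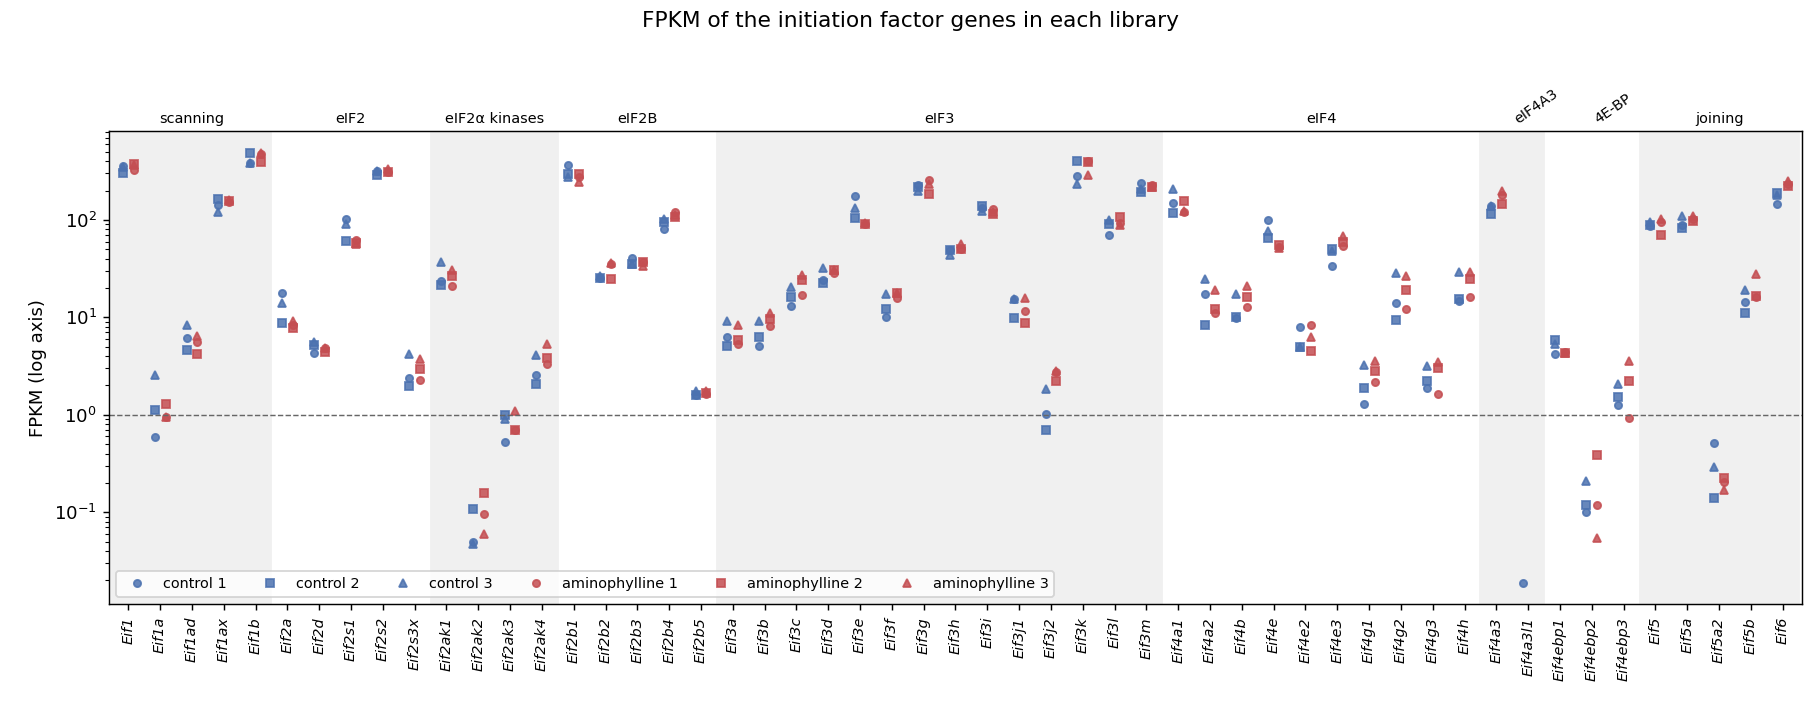
FPKM (log axis) of the 53 initiation factor genes, ordered by role, in the 3 control libraries (blue) and the 3 aminophylline libraries (red), with circles, squares and triangles for libraries 1, 2 and 3. Most members lie above 1 FPKM (dashed line), and values of 0 are not drawn, which leaves 1 point for Eif4a3l1.

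Subunits of the same complex were listed at very different levels. In eIF3 they ran from 1.9 FPKM for Eif3j2, 6.69 for Eif3a and 8.27 for Eif3b to 336 for Eif3k, and in eIF2 the gamma subunit gene Eif2s3x had 2.92 FPKM beside 72 for the alpha subunit gene Eif2s1 and 314 for the beta subunit gene Eif2s2. In eIF2B, Eif2b5, which encodes the catalytic epsilon subunit, had 1.66 FPKM and Eif2b1, which encodes the alpha subunit, 292. These levels depend on the length by which the authors divided. That length was 6.76 times the length of the GENCODE transcript used here for Eif2d, 4.56 times for Eif4e2, 2.73 times for Eif4e3 and 2.05 times for Eif4e, and 0.309 times for Eif4ebp2.

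Members could also share reads with copies elsewhere in the genome. Of the 50-base words of its transcript, 90.8% of those of Eif3j2 also occur in Eif3j1, and 64.9% of those of Eif4a1 occur in the pseudogene Eif4a-ps4. The share of words found in any other gene was 65.5% for Eif4ebp3, 39.8% for Eif3j1, 37.3% for Eif3m, 36.2% for Eif2s3x, 31.6% for Eif1, 27.8% for Eif2s2, 26.2% for Eif3h, 24.4% for Eif4a3 and 22.0% for Eif3e, and their levels are less certain for this reason. How reads that fit several genes were counted is not given in the sources used here.

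Stored oocyte mRNAs are often lengthened at the poly(A) tail through a cytoplasmic polyadenylation element, so the ends of the members' transcripts were searched for it. TTTTAT or TTTTAAT, read on the transcript strand only, stood in the last 100 bases of 5 of the 52 members with a coding transcript in GENCODE M21 (9.62%), beside 17.8% of 16766 protein coding genes. The polyadenylation signal AATAAA or ATTAAA stood there in 78.8% of members and 78.7% of genes. The members with the element were Eif1a, Eif1ax, Eif3j2, Eif3m and Eif4e3. The stretches of 3 of them are shown because 1 is Eif4e3, the cap-binding member that lay higher with aminophylline, with the element in capitals, 5′ to 3′ on the transcript strand (build GRCm38).
Eif1ax (chrX:159389889-159389918, plus strand): tcagtggatgTTTTATgctgcacaaatata
Eif3m (chr2:104999699-104999728, minus strand): atacctgaatTTTTATgaaaatgattttgt
Eif4e3 (chr6:99625205-99625234, minus strand): aaTTTTATttttgaactttatttaaagcat
All 3 stretches lie in the last exon. RefSeq places the end of Eif1ax and of Eif4e3 elsewhere, so the search bears on the GENCODE transcript only. A match describes the letters of the window and does not show that the element is used.

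The main comparison asked which initiation factor mRNAs differed between the oocytes of aminophylline-treated and control mice. None of the 48 tested members had a limma adjusted p under 0.05, as 0 of all 10340 tested genes did (0%). With an unadjusted p under 0.05, 4 members were higher with aminophylline (Eif3j2, Eif6, Eif4e3 and Eif4a3), beside 4.41% of all tested genes, and 4 were lower (Eif4e, Eif3e, Eif2a and Eif2s1), beside 2.84%. The median log2 fold change of the members was 0.09, close to the 0.10 of all tested genes. It was positive for 31 members and negative for 17. With voom on the recovered reads, another method of limma, the adjusted test again called no member and the unadjusted one called 4 higher and 4 lower. In bulk libraries such as these, fewer cells of a type and less RNA per cell cannot be told apart.

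All 3 aminophylline values lay above all 3 control values for 6 members, beside 7.51% of tested genes, and below them for 2, beside 4.96%. With 3 libraries against 3, an exact permutation test of 1 gene cannot give a p under 0.1. No source used here states that same-numbered libraries are paired, so a fit with that block is an alternative only. With the replicate number as a block, 8 members were higher, beside 9.88% of genes, and 4 were lower, beside 4.3%, at an unadjusted p under 0.05. The block gave 47 of 10340 genes (0.455%) an adjusted p under 0.05, none of them a member, and the smallest adjusted p of a member was 0.0936 for Eif3j2.

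**Figure D2:**
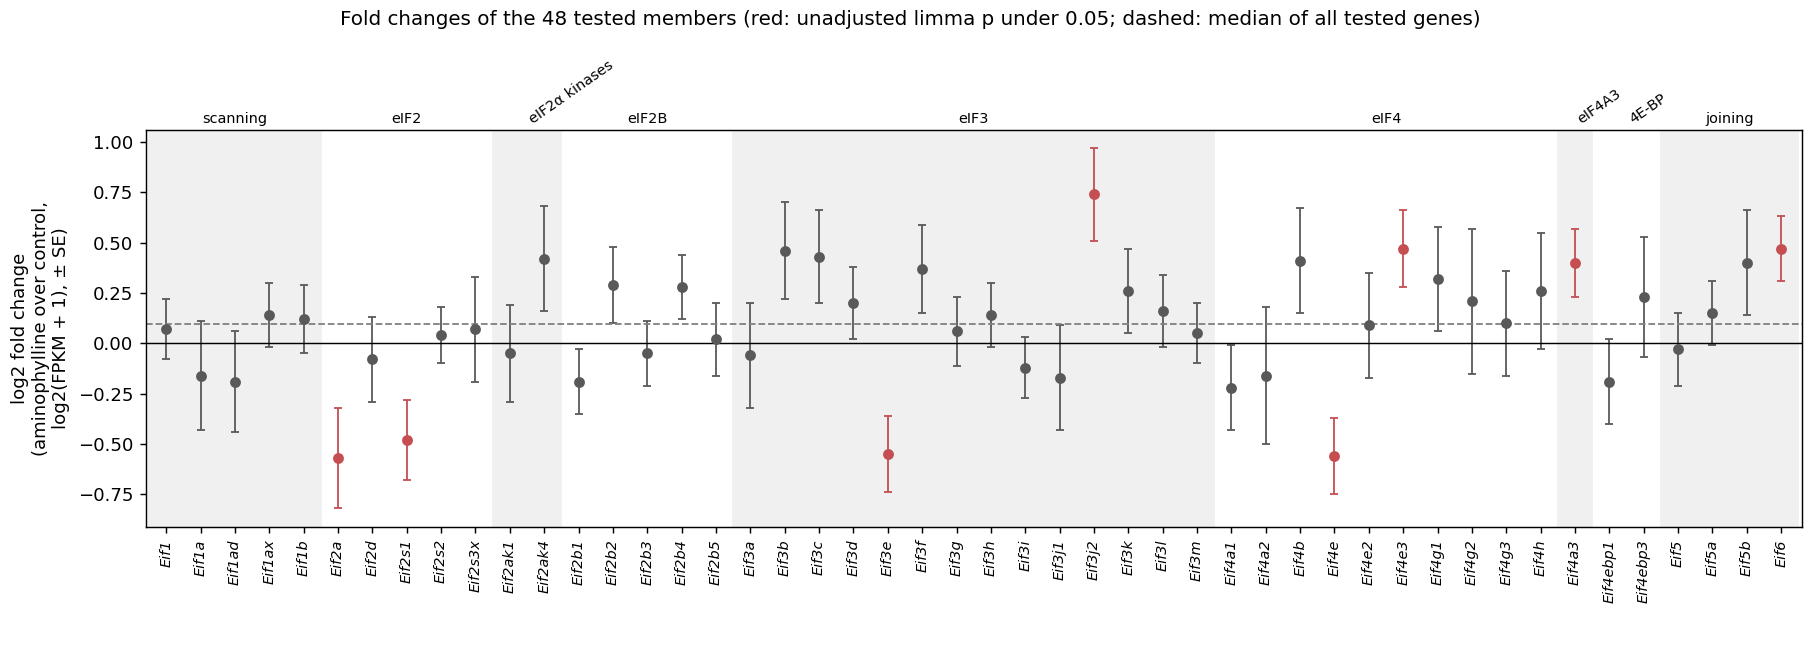
log2 fold change of aminophylline over control on the log2(FPKM + 1) scale, with its standard error from limma, for the 48 tested members ordered by role. The 8 members in red have an unadjusted p under 0.05, the solid line marks 0 and the dashed line the median of all tested genes.

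Genes of the scanning step differed little between the groups. All 5 were tested, their log2 fold changes ran from -0.19 to 0.14, and none passed an unadjusted p of 0.05. Eif1b, the paralog of the start codon factor Eif1, was the most abundant, with 381, 488 and 381 FPKM in control and 473, 394 and 492 with aminophylline. Eif1 itself, which guards the choice of the start codon, had 357, 305 and 351 FPKM in control and 325, 375 and 365 with aminophylline. The groups overlapped for both. Of the eIF1A genes, Eif1ax made up at least 97.9% of the summed FPKM in every library and Eif1a at most 2.06%.

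Both genes of the initiator tRNA group that passed an unadjusted p of 0.05 were lower with aminophylline. Eif2s1 encodes the alpha subunit of eIF2, the one that is phosphorylated to slow initiation. It had 103, 61.2 and 89.9 FPKM in control and 62.1, 58.7 and 56.5 with aminophylline, a log2 fold change of -0.48 (SE 0.20, unadjusted p = 0.0348, adjusted p = 0.682). Control 1 and 3 lay above every aminophylline library, and control 2 lay among them. Eif2s1 is also drawn in a figure of the study on these samples, so its place here is not independent evidence.

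Eif2a, which encodes a separate protein that can bring the initiator tRNA to the ribosome, had 18.0, 8.79 and 13.9 FPKM in control and 8.45, 7.82 and 9.16 with aminophylline. Its log2 fold change was -0.57 (SE 0.25, unadjusted p = 0.0445, adjusted p = 0.684), and here too control 2 lay within the range of the aminophylline libraries. Without control 1 the log2 fold changes were -0.32 for Eif2s1 (unadjusted p = 0.137) and -0.35 for Eif2a (unadjusted p = 0.185). The other subunit genes of eIF2 had log2 fold changes of 0.04 (Eif2s2) and 0.07 (Eif2s3x), and Eif2d, a factor for non-canonical initiation, of -0.08. No gene is listed under the symbol Eif2s3y in the deposited expression table, so it is not among the members.

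Of the 4 eIF2 alpha kinase genes, 2 were tested and neither had an unadjusted p under 0.05. Eif2ak1, the haem-regulated kinase, had 23.8, 21.5 and 37.4 FPKM in control and 21, 26.5 and 31 with aminophylline. Eif2ak4, the kinase that responds to uncharged tRNA, had 2.56, 2.05 and 4.10 in control and 3.33, 3.79 and 5.34 with aminophylline, and its groups overlapped (log2 fold change 0.42, SE 0.26). Eif2ak3, the kinase of the endoplasmic reticulum, stayed between 0.531 and 1.10 FPKM, and Eif2ak2, the kinase that senses double-stranded RNA, between 0.0474 and 0.158, which stands for 10 to 26 reads. Both were below the filter.

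None of the 5 genes of eIF2B, the exchange factor that recharges eIF2, had an unadjusted p under 0.05. Eif2b4, its delta subunit, was 1 of the 6 members that lay higher without overlap. It had 81.3, 95.7 and 102 FPKM in control and 120, 108 and 112 with aminophylline, and its log2 fold change was 0.28 (SE 0.16, unadjusted p = 0.0978, adjusted p = 0.72). The most abundant, Eif2b1, had 364, 294 and 277 FPKM in control and 275, 293 and 248 with aminophylline, with overlap (log2 fold change -0.19, SE 0.16). Eif2b2 and Eif2b3, which encode the beta and gamma subunits, had log2 fold changes of 0.29 and -0.05, and Eif2b5 of 0.02.

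All 14 genes of eIF3, the large scaffold that holds the small subunit to the mRNA, were tested. Of these, 10 had positive and 4 negative fold changes, with a median of 0.15. Eif3e was lower with aminophylline and Eif3j2 higher at an unadjusted p under 0.05. Eif3e, a peripheral subunit, had 176, 105 and 133 FPKM in control and 91.7, 90.5 and 93.9 with aminophylline. Every aminophylline library lay below every control library. The aminophylline values were also much closer together, with an SD of 1.72 against 35.6 in control. Its log2 fold change was -0.55 (SE 0.19, unadjusted p = 0.0156, adjusted p = 0.682), and it was -0.36 without control 1 (unadjusted p = 0.0606).

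Eif3j2 showed the largest fold change of all tested members, at a low level. It had 1.03, 0.703 and 1.86 FPKM in control, from 84, 24 and 143 reads, and 2.77, 2.20 and 2.81 with aminophylline. All aminophylline libraries lay above all control libraries. The log2 fold change was 0.74 (SE 0.23, unadjusted p = 0.00873, adjusted p = 0.662). Eif3j2 spans chr18:43475418-43477836 (GRCm38), the same 2419 bases as the length used for its FPKM, so that it holds no intron, while Eif3j1 on chromosome 2 spans far more than the 2413 bases by which its FPKM was divided or the 5413 bases of its GENCODE transcript. Since most of the Eif3j2 transcript is also found in Eif3j1, the assignment of these reads is uncertain. Both genes encode the loosely bound eIF3j subunit. Their sum was 16.5, 10.5 and 17.2 FPKM in control and 14.3, 10.9 and 18.6 with aminophylline, with overlap and with means of 14.7 ± 3.66 and 14.6 ± 3.85 (SD, n = 3 each).

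Eif3h, another outer subunit, lay higher with aminophylline without overlap by a small margin, with 49.3, 49.1 and 44.0 FPKM in control and 50.9, 49.9 and 56.3 with aminophylline (log2 fold change 0.14, SE 0.16, unadjusted p = 0.398, adjusted p = 0.815). The core subunit genes Eif3b and Eif3c had log2 fold changes of 0.46 and 0.43 with unadjusted p-values of 0.0806 and 0.0921. With the replicate block their unadjusted p-values were 0.0321 and 0.0318, and their adjusted p-values 0.299 and 0.298. Eif3k, the most abundant, had 283, 405 and 236 FPKM in control and 404, 397 and 292 with aminophylline, and the groups overlapped.

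Within eIF4 the 2 most abundant cap-binding members lay in opposite directions. Eif4e1b, which the rule leaves out, was not compared. Eif4e, the cap-binding protein itself, had 101, 64.6 and 76.4 FPKM in control and 53.1, 55.6 and 51.4 with aminophylline. All aminophylline libraries lay below all control libraries. The log2 fold change was -0.56 (SE 0.19, unadjusted p = 0.0115, adjusted p = 0.664). It was -0.39 without control 1 (unadjusted p = 0.0429).

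Eif4e3, a relative of eIF4E that also binds the cap, had 33.7, 50 and 48.2 FPKM in control and 53.6, 60.0 and 68.7 with aminophylline. All aminophylline libraries lay above all control libraries, with control 1 the lowest of the 6. The log2 fold change was 0.47 (SE 0.19, unadjusted p = 0.0337, adjusted p = 0.682), and 0.29 without control 1 (unadjusted p = 0.126). Eif4e2, a further relative that takes part in repression, overlapped between the groups at 4.56 to 8.31 FPKM (log2 fold change 0.09).

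Among the helicase and scaffold genes, Eif4a1, the most abundant of the group, had 151, 118 and 209 FPKM in control and 121, 157 and 124 with aminophylline. Its groups overlapped (log2 fold change -0.22, SE 0.21). Its paralog Eif4a2 had a log2 fold change of -0.16, and the scaffold genes Eif4g1, Eif4g2 and Eif4g3 of 0.32, 0.21 and 0.10. The helicase cofactor genes Eif4b and Eif4h had log2 fold changes of 0.41 and 0.26. Eif4b had an unadjusted p of 0.0443 with the replicate block (adjusted p = 0.334) and 0.14 without it.

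Eif4a3, a helicase of the same family that marks exon junctions on spliced mRNA, had 138, 114 and 139 FPKM in control and 180, 145 and 197 with aminophylline. All aminophylline libraries lay above all control libraries, aminophylline 2 by a small margin. The log2 fold change was 0.40 (SE 0.17, unadjusted p = 0.0364, adjusted p = 0.682). Its copy Eif4a3l1 had 1 read in control 1 and 0 in the other 5 libraries. A count of 0 allows up to 3 reads, which is 0.06 to 0.135 FPKM in those libraries.

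The 4E-binding protein genes were low. Eif4ebp1, the most abundant, had 4.18, 5.85 and 5.29 FPKM in control and 4.37, 4.32 and 4.30 with aminophylline, with control 1 below the aminophylline libraries and the other control libraries above them (log2 fold change -0.19, SE 0.21). Eif4ebp3 ranged over 0.923 to 3.58 FPKM and its groups overlapped. Eif4ebp2 stayed between 0.0549 and 0.384 FPKM, from 3 to 17 reads, and was not tested.

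In the late steps, Eif6 was higher with aminophylline at an unadjusted p under 0.05. Eif6, which keeps the large subunit from joining too early and takes part in its assembly, had 145, 187 and 179 FPKM in control and 233, 224 and 250 with aminophylline. All aminophylline libraries lay above all control libraries with a gap between the groups. The log2 fold change was 0.47 (SE 0.16, unadjusted p = 0.0121, adjusted p = 0.664), and 0.36 without control 1 (unadjusted p = 0.0389). Eif5b, the GTPase of subunit joining, had a log2 fold change of 0.40 (unadjusted p = 0.147, and 0.0449 with the replicate block). Eif5, which triggers GTP hydrolysis on eIF2, and Eif5a, which helps ribosomes over difficult stretches, had log2 fold changes of -0.03 and 0.15. Eif5a2 was below the filter at 0.141 to 0.509 FPKM.

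**Figure D3:**
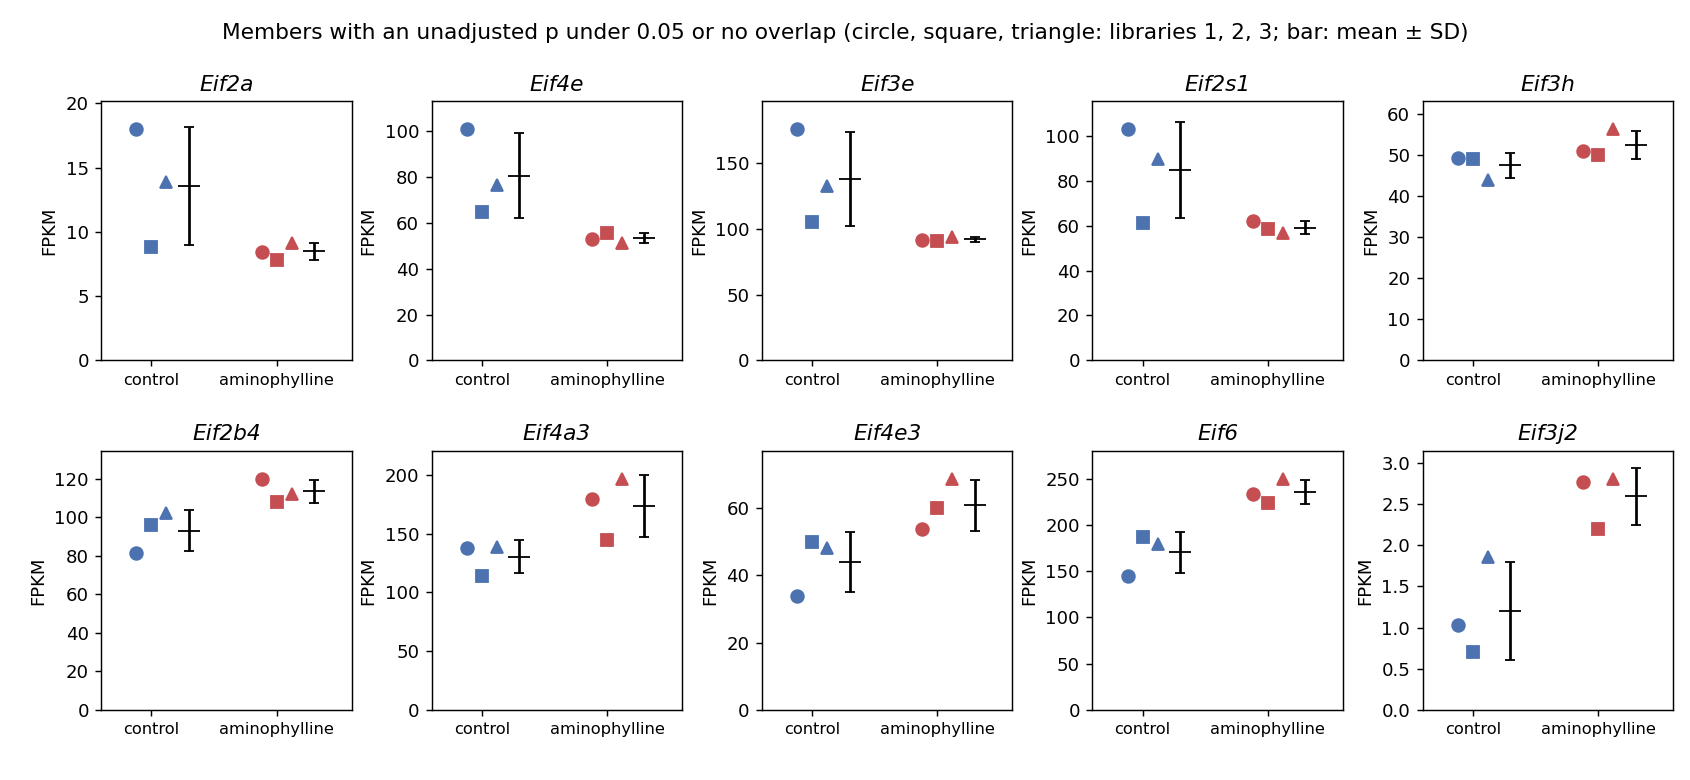
FPKM in each library for the 10 members with an unadjusted p under 0.05 or no overlap between the groups, ordered from the most negative to the most positive fold change, with axes from 0. Circles, squares and triangles are libraries 1, 2 and 3, and the bars give the mean ± SD of 3 libraries. The control circle (control 1) is the highest of the 6 libraries for Eif2a, Eif4e, Eif3e and Eif2s1.

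The 4 lower members were highest of all libraries in control 1, the library with the highest summed macrophage markers and the only one with C1qc. The values of Eif4e3, Eif6 and Eif2b4 were lowest there. The part of those other cells in these differences was not tested. Without control 1, 3 members were higher and 1 was lower at an unadjusted p under 0.05, against 4 and 4 with all libraries. In the same fits 3.57% of all tested genes passed in either direction, against 7.25%. Without control 1 the log2 fold change of Eif2b4 was 0.19, against 0.28 with all libraries. It was 0.17 against 0.14 for Eif3h, 0.45 against 0.4 for Eif4a3 and 0.7 against 0.74 for Eif3j2.

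Shares within paralog sets do not depend on the scaling of a library. Eif4e made up 70.8%, 54.0% and 59.0% of the summed FPKM of Eif4e, Eif4e2 and Eif4e3 in control and 46.2%, 46.3% and 40.6% with aminophylline. Eif4e3 made up 23.6%, 41.8% and 37.2% in control and 46.6%, 49.9% and 54.4% with aminophylline. Neither share overlapped between the groups. Eif4e1b, which the rule leaves out, is not part of this sum. The means differed by -16.9 percentage points (aminophylline minus control) for Eif4e (61.3% ± 8.63 against 44.4% ± 3.23, SD) and by 16.1 for Eif4e3 (34.2% ± 9.47 against 50.3% ± 3.89, SD), and an exact permutation test of such a difference gives 0.1, its smallest p.

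The sum of Eif4e, Eif4e2 and Eif4e3 overlapped, at 143, 120 and 130 FPKM in control and 115, 120 and 126 with aminophylline. When the reads were instead divided by the length of the GENCODE transcripts, Eif4e made up 61.8%, 45.5% and 50.4% in control and 37.2%, 38.2% and 32.8% with aminophylline, again without overlap. The order of Eif4e and Eif4e3 in control 2 depended on this length, since Eif4e3 then made up 46.8% there. The shares rest on the same values as the single genes and are not separate evidence.

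**Figure D4:**
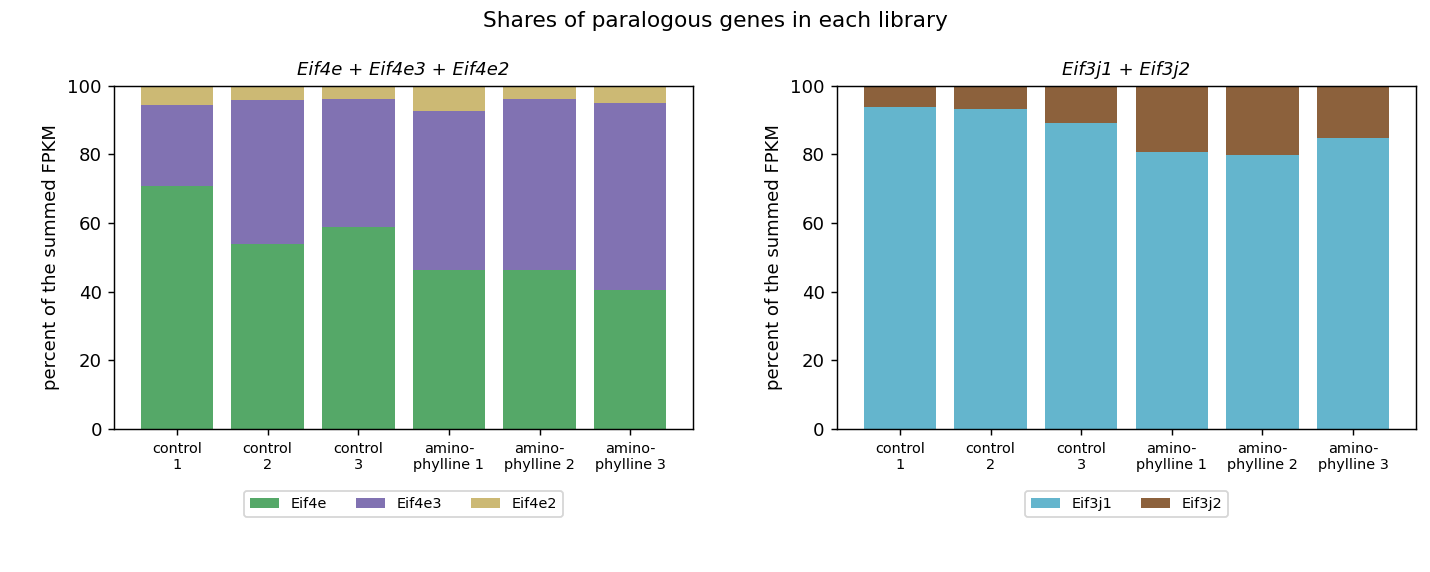
Share of each gene in the summed FPKM of its paralog set (percent) in the 6 libraries, for Eif4e, Eif4e3 and Eif4e2 on the left and Eif3j1 and Eif3j2 on the right. The share of Eif4e is 54.0% to 70.8% in control and 40.6% to 46.3% with aminophylline, and that of Eif3j2 is 6.26% to 10.8% in control and 15.1% to 20.2% with aminophylline.

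Eif3j2 made up 6.26%, 6.67% and 10.8% of the summed FPKM of the eIF3j genes in control and 19.4%, 20.2% and 15.1% with aminophylline, without overlap and with the uncertainty given for its reads. In the other paralog sets the groups overlapped. Eif1b held 51.2% to 61.6% of the Eif1 and Eif1b sum, Eif4a1 86.8% to 93.4% of the Eif4a1 and Eif4a2 sum, and Eif4g2, which encodes a scaffold that lacks the eIF4E site, 69.8% to 81.7% of the Eif4g sum. Eif4ebp1 held 54.2% to 80.7% of the 4E-binding protein sum, and Eif5a at least 99.4% of its sum with Eif5a2.

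Members also differed between libraries of the same group. Of the 48 tested members, 24 (50%) had their highest value in both libraries numbered 3, beside 34.4% of all tested genes. Eif4g2 is an example, with 14.1, 9.46 and 28.4 FPKM in control and 12.2, 18.9 and 26.4 with aminophylline, and Eif4h another, with 14.6, 15.4 and 29.4 and with 16.3, 24.7 and 29.1. For Eif4g2 and Eif4h the spread within a group was larger than the difference between the groups. The 24 members had a median length of 2939 bases in the table, against 1997 for the other 24. The SD of the log2 values was smaller with aminophylline for 36 of 48 members (75.0%), beside 74.7% of all tested genes.

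**Figure D5:**
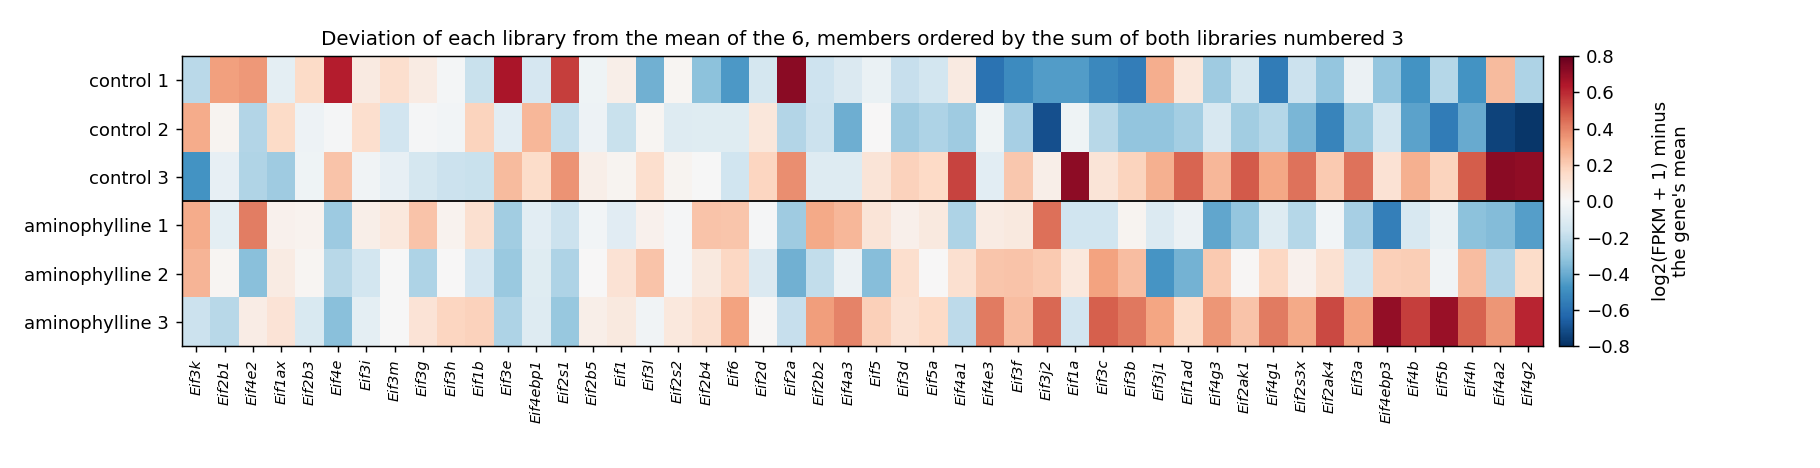
Deviation of log2(FPKM + 1) in each library from the mean of the 6 libraries, for the 48 tested members ordered by the sum over both libraries numbered 3, with red above and blue below the mean. Most members at the right are high in control 3 and aminophylline 3, and Eif2a, Eif2s1, Eif3e and Eif4e are high in control 1.

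Across the 48 members, the log2 fold change went with the GC content of the transcript (Spearman's rho 0.45), and it did so across the 8537 tested genes of known GC content as well (rho 0.42). The genes share the same libraries, so this is a description. Eif6 had a GC content of 57.9% and Eif4a3 of 54.1%, while Eif4e had 40.5%, Eif3e 40.3%, Eif2s1 40.8% and Eif2a 43.6%. Eif3j2 (40.1%) and Eif4e3 (45.0%) lay higher with aminophylline at a low GC content. After a loess correction for GC content and length together with the replicate block, the log2 fold changes were -0.54 for Eif4e, 0.44 for Eif4e3, 0.86 for Eif3j2 and 0.24 for Eif6. The limma unadjusted p of Eif6 was then 0.0513, and its adjusted p was 0.339, against 0.588 without the block. The log2 fold changes were 0.25 for Eif4a3 (unadjusted p = 0.0572, and 0.167 without the block) and 0.09 for Eif2b4. The lower members Eif3e, Eif2s1 and Eif2a had -0.44, -0.39 and -0.54, against -0.55, -0.48 and -0.57 before the correction.

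Of 44 regulators and partners of initiation outside the Eif symbols, such as the mTOR complex and poly(A)-binding proteins, 36 were tested and none had an adjusted p under 0.05. At an unadjusted p under 0.05, 1 was higher, beside 4.41% of all tested genes, and 2 were lower, beside 2.84%. With the replicate block 3 were higher, beside 9.88%, and 3 lower, beside 4.3%. Without control 1 none passed, by limma at the same unadjusted threshold, beside 3.57% of all tested genes in either direction. Paip1 and Paip2 were highest of all libraries in control 1. The list's median log2 fold change was 0.16, beside 0.095 for all tested genes. Paip2, which holds the poly(A)-binding protein away from its partners, had 426, 327 and 321 FPKM in control and 266, 258 and 263 with aminophylline, without overlap (log2 fold change -0.43, SE 0.16, unadjusted p = 0.0194, adjusted p = 0.682). Paip1, which links that protein to eIF4A, had 162, 59.7 and 133 FPKM in control and 53.5, 64.8 and 71.4 with aminophylline, and control 2 lay among the aminophylline values (log2 fold change -0.78, SE 0.31, unadjusted p = 0.0273, adjusted p = 0.682).

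Zfp598, a ubiquitin ligase that senses collided ribosomes, had 2.71, 2.71 and 4.99 FPKM in control and 4.35, 7.88 and 8.24 with aminophylline, with aminophylline 1 below control 3 (log2 fold change 0.80, SE 0.29, unadjusted p = 0.017, adjusted p = 0.682). Atf4, a transcription factor whose mRNA is translated when eIF2 is phosphorylated, had 29.8, 42.8 and 72.3 FPKM in control and 54.6, 78.9 and 78.7 with aminophylline. Its log2 fold change was 0.61, with an unadjusted p of 0.0543, and of 0.00282 with the replicate block (adjusted p = 0.129). Mtor itself had a log2 fold change of 0.17 at 0.578 to 2.46 FPKM. In the deposited annotation 4 members belong to the mTOR signalling pathway, which the study examined on these samples. They are Eif4b, Eif4e, Eif4e2 and Eif4ebp1, with log2 fold changes of 0.41, -0.56, 0.09 and -0.19.

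The 15 elongation and termination genes listed were all tested, and 14 had positive fold changes with a median of 0.30 on the log2 scale, beside 0.10 for all tested genes. None had an adjusted p under 0.05. At an unadjusted p under 0.05, 4 were higher, beside 4.41% of all tested genes, and 0 lower, beside 2.84%. All 4 (Eef1g, Dhps, Eef2k and Pelo) had their lowest value of all libraries in control 1. No fit without control 1 is given for this list, so its dependence on that library was not tested. With the replicate block 6 were higher, beside 9.88%. Eef1g, a subunit of the elongation factor that recharges eEF1A, had 9.21, 9.42 and 11.4 FPKM in control and 14.5, 18.1 and 12.2 with aminophylline, without overlap (log2 fold change 0.52, unadjusted p = 0.0304, adjusted p = 0.682).

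Dhps, which makes the modified residue of eIF5A, also lay higher without overlap, with 6.52, 8.19 and 6.94 FPKM in control and 9.28, 10.2 and 10.9 with aminophylline (log2 fold change 0.44, unadjusted p = 0.0493, adjusted p = 0.685). Eef2k, the kinase that inhibits eEF2, had 4.18, 4.20 and 8.63 FPKM in control and 6.99, 9.05 and 12.1 with aminophylline. Pelo, which rescues stalled ribosomes, had 0.359, 1.31 and 0.700 FPKM in control and 0.901, 2.41 and 1.95 with aminophylline. The groups overlapped for both, with log2 fold changes of 0.67 and 0.62 and an unadjusted p of 0.0417 each.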

How the data were processed

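RNA of oocytes was sequenced in 6 libraries, 3 control and 3 aminophylline, grouped by the labels. The authors deposited FPKM per gene, normalised by them to length and library total, with no SD or counts. The submitters' processing notes name GRCm38 and mm10. The aligner, counter and annotation are not given in the sources used here. Dose and weeks come from the study's methods. Depth was recovered from the ratios of the FPKM values, and 100% of the values of 22583 genes came out as whole reads (relative tolerance 1e-06).

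The filter kept genes whose FPKM reached 1 in 3 or more libraries. They were tested with limma 3.58.1 in R 4.3.3 (variance trend, two-sided) on log2(FPKM + 1), a scale that understates the change of low genes, with Benjamini-Hochberg adjustment over 10340 genes. The study names unpaired t tests without covariates, so the fit had none. The labels number the libraries of both groups 1 to 3. No source used here states a pairing. Deviations from the group means correlated between same-numbered libraries at 0.138, 0.14 and 0.552, all above 0.1. Differently numbered libraries were not compared, so these values cannot show a pairing. The fit with the replicate number as a block is given as an alternative where it changes a count. The 12 alternatives and 6 fits without 1 library are in the closing section. The code was tested on simulated data.

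Members, roles and lists were chosen with earlier results of these data known. The named members are those with an unadjusted p under 0.05 or no overlap, the most abundant of each role and of all members, the paralog sets, Eif2s1, and members under the filter by range. List genes were named at an unadjusted p under 0.05. Outside this rule, the macrophage markers, Atf4, Mtor, Eif4g2, Eif4h and the fold changes of other members were named after their values were seen. Positions are from RefSeq and transcripts from GENCODE M21, both on GRCm38. Python 3.11.15 was used for the rest.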

Additional observations from a re-analysis of the deposited data

How the results depend on the processing

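No member had an adjusted p under 0.05 under any of the 12 alternatives or the 6 fits without 1 library. Over these the adjusted p of a member was at least 0.0936, and the members' median log2 fold change was between -0.002 and 0.152. The 10 members named for an unadjusted p under 0.05 or no overlap kept their direction under every alternative, while 19 of the other 38 tested members changed sign under at least 1. Eif4e kept an unadjusted p under 0.05 under all 12 alternatives and all 6 fits without 1 library, and Eif3j2 did so under all 11 alternatives in which it was tested and those 6 fits. Eif2s1 and Eif2a lost it in 5 of the 6, and Eif4a3 kept it in 5 of the 12 and 3 of the 6. The number of higher members at an unadjusted p under 0.05 was 4 at first, 2 after rescaling to a common sum (TPM), 1 with median centring, 2 with an unmoderated linear model, and 8 with the replicate block and with library weights, where 14.2% and 19.4% of all tested genes passed in either direction, against 7.25% at first. The number of lower members was 4 at first, 2 without a filter and 1 with the unmoderated model. Without overlap, 6 members were higher and 2 lower at first, 2 were higher after rescaling to TPM, 6 were lower after quantile normalization and 4 with median centring. A correction for GC content and length, chosen after seeing the data, gave 3 higher and 5 lower without overlap. The share of all tested genes without overlap was taken at first only, at 7.51% higher and 4.96% lower. Of the initiation regulators, 3 passed an unadjusted p of 0.05 at first, 1 with the unmoderated model, 6 with the replicate block, 9 with library weights and 7 with the GC and length correction and the replicate block. Of all tested genes, 6.55% passed with the unmoderated model and 15% with that correction and block. The share was 5.54% after rescaling to TPM, 7.57% with median centring and 5.48% without a filter. The block also moved the genes called at an adjusted p under 0.05 from 0 to 47 and the higher elongation genes from 4 to 6.

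Leaving out 1 library at a time gave 1 to 12 higher and 1 to 4 lower members at an unadjusted p under 0.05, 6 to 17 higher and 3 to 4 lower without overlap, and 0 to 8 regulators. Without control 3, 12 members were higher, 2 lower, and 17 higher without overlap, and 14.3% of all tested genes passed. Without aminophylline 3, 1 was higher and 2 lower, and without control 1, 3 were higher and 1 lower and 0 regulators passed. Without aminophylline 1, 11 were higher without overlap and 2 lower at an unadjusted p under 0.05, and without aminophylline 2, 2 were lower and 0 regulators passed. Without control 2, 4 members were lower without overlap and 6 regulators passed. Of all tested genes, 15.6% passed without control 2, 3.57% without control 1, and 6.81%, 3.18% and 4.14% without aminophylline 1, 2 and 3. The causes were not tested. With fewer libraries, no overlap is met more often by construction, and its share over all tested genes was not taken in these fits. Over all tested genes, the median log2 fold change was 0.095 at first, 0.06 after rescaling to TPM, 0.01 after quantile normalization and 0.013 with median centring. GC content could be assigned to 82.6% of genes.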
